A study of Mus musculus with 2 samples.

Results

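The cytosolic ribosomal protein genes were taken as every gene whose symbol starts with Rpl or Rps and a digit, together with Rpsa, Rplp0, Rplp1 and Rplp2, leaving out the Rps6k kinases and Rps19bp1. In the RefSeq list of mouse genes, 400 symbols met this rule, of which 309 were pseudogenes. A named probe was present for 89 of them (54 of the large and 35 of the small subunit), among 20659 named genes on the array, and these 89 genes had 179 probes. On both arrays 86 of the 89 were measured, that is, well above background, of 10223 genes so measured, and the 3 others are described separately. Of the 86, 51 belong to the large and 35 to the small subunit.

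The cells were fetal liver blood cells of mouse embryos at E13.5, sorted on the F405/F488 fluorescence ratio of a sensor. The populations with a high and a low ratio are called SoNar-high and SoNar-low. SoNar is a genetically encoded fluorescent sensor that reports on the balance of NADH and NAD+ in the cytosol. There was 1 array per group, the strain is labelled C57BL/6 for SoNar-high and C57BL for SoNar-low, and neither the source of the sensor in these embryos nor the number of embryos pooled is given in the sources used here. Total RNA was labelled with Cy3 and hybridised to an Agilent array in 1 colour, and the comparison asks which transcripts differ between the sorted populations.

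Cytosolic ribosomes translate all nuclear-encoded mRNAs. The large subunit carries the peptidyl transferase centre and the exit tunnel, the small subunit decodes the mRNA, and their proteins are made in near-equal numbers from single-copy genes that sit among many processed pseudogenes. Many of these mRNAs start with a cytosine followed by a run of pyrimidines, the 5' terminal oligopyrimidine (TOP) tract through which mTOR signalling controls their translation. In the erythroid lineage ribosome supply is known to be limiting: loss of 1 copy of any of several of these genes causes Diamond-Blackfan anaemia, a failure of red cell production.

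Each value below is a log2 difference within 1 probe, SoNar-high minus SoNar-low, after each array's 75th percentile was subtracted (a raw signal of 186.5 for SoNar-high and of 222.2 for SoNar-low cells). A negative difference is a lower relative signal in SoNar-high cells. A gene with the same raw signal on both arrays therefore gets a difference above 0, as Rpl10a does with signals of 42193 and 42395 and a difference of 0.25. A gene with several probes is represented by its brightest measured one. With 1 array per group no test is possible, and the only measured error is that between spots of the same probe within an array pair, an SD of 0.148 over 213 probes that were printed 10 times, which holds no biological variation. In bulk RNA, fewer cells of a type and less RNA per cell cannot be told apart.

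Ribosomal protein transcripts differed little between the populations, and most lay slightly lower in SoNar-high cells. None of the 86 genes was at least 2-fold higher in SoNar-high (5.28% of all measured genes were) and 1 (1.16%) was at least 2-fold lower (4.44% of all measured genes were). At 1.5-fold, 1 gene was higher (13.8% of all measured genes were) and 16 genes, or 18.6%, were lower (17.7% of all measured genes were), so the share of lower members was near that of all genes. The other 69 members, 80.2%, were within 1.5-fold, against 68.5% of all measured genes. Within the spot SD of 0 lay 29 members (33.7%) and 19.7% of all measured genes.

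The median difference of the 86 genes was -0.17 (quartiles -0.52 and -0.02, range -1.43 to 0.63), beside -0.08 for all measured genes (quartiles -0.45 and 0.32). The median of the members minus that of all genes, -0.085, ranged from -0.237 to -0.0335 over the alternative settings. Below 0 lay 67 members (77.9%) and 55.8% of all measured genes. That count fell to 46 when only detected probes set the 75th percentile, the setting that moved it most, and this setting also raised the median of all genes by 0.155, as loess did by 0.101. Read against the median of all genes, 58 members (67.4%) were lower. The SD across members was 0.364 and that across all measured genes 0.628, a contrast not matched for probe brightness. In the brightness bands described below, from dimmest to brightest, the SD across members was 0.59, 0.307, 0.258 and 0.225. Across the other measured genes it was 0.64, 0.479, 0.48 and 0.291.

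**Figure D1:**
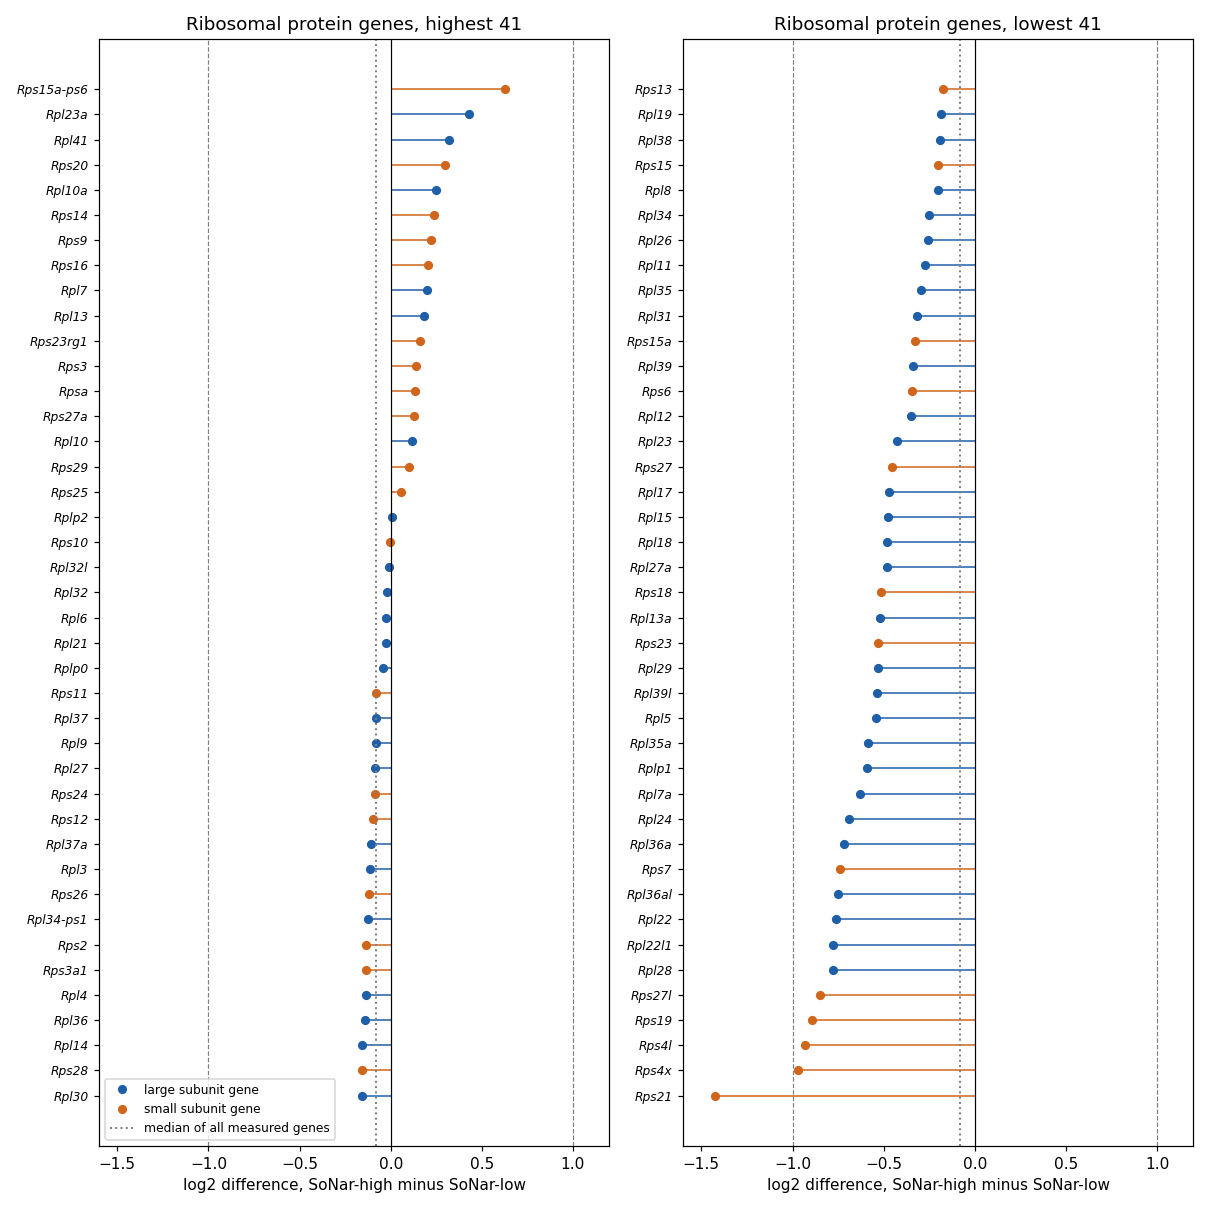
Log2 difference (SoNar-high minus SoNar-low, each array scaled to its 75th percentile) of 82 measured ribosomal protein genes, ordered by value, with the highest 41 on the left and the lowest 41 on the right. Each point is the brightest probe of 1 gene on 1 array per group, blue for the large and orange for the small subunit, the dotted line is the median of all measured genes (-0.08) and dashed lines mark 2-fold; only Rps21 lies past them, and 64 of the 82 points lie below 0 (of all 86 members 67 do, and 46 with the 75th percentile of detected probes).

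The gene with the largest difference was Rps21, which encodes a protein of the small subunit. Its single probe gave signals of 1604.5 in SoNar-high and 5140.9 in SoNar-low cells, a difference of -1.43 or 2.69-fold lower in SoNar-high. It was the lowest member under each of the 6 other scalings and background corrections, with values from -1.71 to -1.20. The 75th percentile and the median of detected probes shift every gene alike, so they could not change its rank. The next lowest was Rps4x, the X-linked gene of small-subunit protein eS4, with 2794.5 and 6519.6 and a difference of -0.97. Rps19, the gene most often mutated in Diamond-Blackfan anaemia, gave 541 in SoNar-high and 1199 in SoNar-low cells, a difference of -0.90 that ranged from -0.99 to -0.69 over the scalings. All 3 of these are small-subunit genes with 1 probe each, and both of the last stayed short of 2-fold.

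Among large-subunit genes the lowest was Rpl28, with signals of 7300 and 14925 and a difference of -0.78. Rpl22, an RNA-binding protein of the large subunit with a known role in lymphocyte development, followed with 12436 and 25075 and a difference of -0.76, and its second probe gave -0.82. Rps7, of the small subunit, had 2333 in SoNar-high and 4634 in SoNar-low cells, a difference of -0.74. Rps4l, Rps27l, Rpl22l1 and Rpl36al, which complete the lowest 10, are copies of other members and are described with their pairs. Others past 1.5-fold lower included Rpl36a (-0.72), Rpl24 (-0.69), Rpl7a (-0.63), Rplp1 (-0.59) and Rpl35a (-0.59), all of the large subunit. The lowest 10 shared 7 to 10 genes with the lowest 10 of each of the 6 other scalings and background corrections. All 10 were shared with the 75th percentile and the median of detected probes, which cannot change the order. The others shared 7 or 8.

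At the other end, the highest difference belonged to Rps15a-ps6, a transcribed pseudogene of Rps15a, with dim signals of 138 and 106 and a difference of 0.63, or 1.54-fold. Rpl23a, a large-subunit protein at the exit of the tunnel, gave 10552 and 9319 and a difference of 0.43, while its second probe gave -0.08. Rpl41, which encodes the smallest ribosomal protein, had 38875 in SoNar-high and 37171 in SoNar-low cells, a difference of 0.32. These, with Rps20 (29550 and 28655), were the only members of the highest 10 whose raw signal was higher in SoNar-high cells. Rps20 (0.30), Rpl10a (0.25), Rps14 (0.24), Rps9 (0.22), Rps16 (0.21), Rpl7 (0.20) and Rpl13 (0.18) completed the highest 10, all above 0 under the 6 scalings and background corrections. With the median over probes, however, Rps16 (-0.0195), Rpl7 (-0.181) and Rpl13 (-0.554) turned below 0. The highest 10 shared 6 to 10 genes with those of each other scaling or background correction, and 6 to 9 where the setting could change the order. Across all 86 members, 44 were below 0 and 14 above 0 under every one of the 6, and 28 changed sign with the setting.

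The differences of the large subunit lay within the range of the small subunit, whose upper end was the transcribed pseudogene Rps15a-ps6. The 51 large-subunit genes had a median of -0.25 (SD across genes 0.306, range -0.78 to 0.43), with 44 (86.3%) below 0, 10 at least 1.5-fold lower and none 1.5-fold higher. The 35 small-subunit genes had a median of -0.12 (SD 0.438, range -1.43 to 0.63), with 23 (65.7%) below 0, 6 at least 1.5-fold lower and 1 higher, and this median turned to 0.0356 with the 75th percentile of detected probes. The 1.5-fold lower shares, 19.6% of the large and 17.1% of the small subunit, were near the 17.7% of all measured genes. Of all measured genes 13.8% were 1.5-fold higher and 55.8% below 0. The lowest 5 and the highest of all members carry small-subunit names, but Rps4l among the lowest and Rps15a-ps6 at the top are transcribed pseudogenes. Without Rps15a-ps6 the highest member was the large-subunit gene Rpl23a (0.43), above Rps20 (0.30), the highest remaining small-subunit gene. The large minus the small median was -0.13 and stayed between -0.182 and -0.0529 over all 12 alternatives tried. Among these, the 75th percentile and the median of detected probes cannot change it.

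Functional groups within the ribosome were looked at next. The P stalk of the large subunit, which recruits the elongation factor GTPases, is built from Rplp0, Rplp1 and Rplp2. Rplp0 gave 27918 in SoNar-high and 34311 in SoNar-low cells, a difference of -0.04 (its 3 probes, -0.32 to -0.04). Rplp2 gave 47350 and 56128, a difference of 0.01. Rplp1, the partner of Rplp2 in the stalk's dimers, gave 4320 and 7755, a difference of -0.59, and stayed below 0 under all 6 scalings and background corrections (-0.745 to -0.356). The median of the stalk, -0.04, changed sign over those settings (-0.203 to 0.11).

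Rpl5 and Rpl11 form, with 5S rRNA, the particle that binds MDM2 when ribosome assembly fails. Rpl5 gave 3347 and 5810, a difference of -0.54, and Rpl11 gave 20219 and 29136, a difference of -0.27, with its 3 probes between -0.27 and -0.01. Both were lower in SoNar-high cells under all 6 scalings and background corrections.

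All 18 listed Diamond-Blackfan genes among the members were measured. Their median was -0.29, or -0.20 relative to all genes, and it stayed below all genes under the scalings (-0.238 to -0.186). Here 16 of the 18 were below 0, beside 77.9% of all members and 55.8% of all measured genes. None was 2-fold different (5.28% of all measured genes were 2-fold higher and 4.44% lower). After Rps19 (-0.90) and Rps7 (-0.74), the lowest were Rpl35a (-0.59), Rpl5 (-0.54), Rpl18 (-0.48), Rpl15 (-0.48) and Rps27 (-0.45). Rpl31 (-0.32), Rpl35 (-0.30), Rpl11 (-0.27), Rpl26 (-0.26), Rps28 (-0.16), Rps26 (-0.12), Rps24 (-0.09), Rpl27 (-0.08) and Rps10 (-0.01) followed. These genes, and also Rpl5, Rpl18, Rpl15 and Rps27, were within 1.5-fold. Rps29 gave 32384 in SoNar-high and 35947 in SoNar-low cells, a difference of 0.10, the highest of the list. It turned to -0.33 after normexp background correction. At their highest over the scalings and background corrections, Rps10 (0.149), Rps24 (0.0701), Rps26 (0.101) and Rpl27 (0.071) lay above 0. The count below 0 thus depended on the setting. The anaemia genes thus spanned from among the lowest members to near 0.

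Several ribosomal proteins have a second gene. Rpl22 and Rpl22l1, whose proteins are alternatives to each other in the ribosome, had almost the same difference: Rpl22l1 gave 1522 in SoNar-high and 3106 in SoNar-low cells, a difference of -0.78 beside -0.76 for Rpl22. Rpl36a gave 10393 and 20383, a difference of -0.72, and its copy Rpl36al gave 649 and 1303, a difference of -0.75. Rps4l, annotated as a transcribed pseudogene, gave 775 and 1761, a difference of -0.93 beside -0.97 for Rps4x. In these 3 pairs the copy minus its gene was -0.02, -0.03 and 0.04, and each of the 6 genes lay lower in SoNar-high cells. Rpl22l1 minus Rpl22 turned to 0.153 with quantile normalization, Rpl36al minus Rpl36a to 0.588 with the dimmest probe of each gene, and Rps4l minus Rps4x to -0.00572 at its lowest.

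The other pairs differed more. Rps27l, a known p53 target, gave 764 in SoNar-high and 1640 in SoNar-low cells, a difference of -0.85, while Rps27 gave 26256 and 42789, a difference of -0.45 (its 4 probes, -0.45 to -0.10). The copy minus its gene was thus -0.40, a gap that narrowed to -0.13 with quantile normalization and widened to -0.616 with the dimmest probe of each gene. Rpl39l, a copy best known from testis, was the dimmest measured member, with 41.3 and 71.3 and a difference of -0.54. Rpl39 gave 16125 and 24289, a difference of -0.34 (its 3 probes, -0.82 to -0.34), and the gap of -0.20 between copy and gene changed sign to 0.187 with the median over probes and to 0.0756 after normexp background correction. No order between Rpl39l and Rpl39 can be read from these values.

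For 3 further pairs only the common gene was measured. Rpl3 (-0.11), Rpl7 (0.20) and Rpl10 (0.12, which turned to -0.0227 at the lowest scaling) were within 1.5-fold. Rpl3l, the striated muscle copy of Rpl3, gave 10.4 and 11.3, and Rpl7l1 gave 28.3 and 29.6; neither was well above background on either array. Rpl10l, the testis copy of Rpl10, gave 38.9 in SoNar-high and 9.14 in SoNar-low cells and was well above background only in the former. Set against the lowest signal of any probe well above background in SoNar-low cells, its relative signal was 1.25-fold higher in SoNar-high. That floor is not specific to this probe, so the value is only a rough bound. A second, dimmer Rpl10l probe, also not measured on both arrays, gave 6.96 and 11.8, the opposite direction. Other copies, outside the listed pairs, were measured with the gene they are named after. Rpl34-ps1 gave -0.12 beside -0.25 for Rpl34, and Rpl32l gave -0.01 beside -0.02 for Rpl32. Rps23rg1, with dim signals of 151 and 161, gave 0.16, whereas Rps23 gave 11076 and 19091, a difference of -0.53. Rps15a-ps6 gave 0.63 and Rps15a, with 14990 and 22455, gave -0.33, while the 3 probes of Rps15a ran from -0.50 to 0.18. In the last 2 of these pairs the copy and its gene lay on opposite sides of 0.

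The size of the difference went with the brightness of the probe. That brightness depends on the probe as well as on the gene's level, so it does not rank genes by level. Of the 86 members, 76 were represented by probes in the brightest 10% of measured genes. The 12 members with a mean log2 signal under 4 (relative to the 75th percentile) had a median difference of -0.64, the 26 between 4 and 6 of -0.47, the 28 between 6 and 7 of -0.17, and the 20 at 7 and above of -0.01. In the same bands the other measured genes had medians of -0.07 (9334 genes), -0.18 (673), 0.02 (91) and 0.11 (39). From the dimmest band to the brightest, 9 of 12, 24 of 26, 23 of 28 and 11 of 20 members were below 0, beside 54.9%, 68.2%, 48.4% and 30.8% of the other genes. The members' median was thus below that of the other genes in each band. The band under 4 has no lower limit and its other genes are mostly dimmer than its members, so the gap there does not compare probes of like brightness. The part of probe brightness in these differences was not tested.

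**Figure D2:**
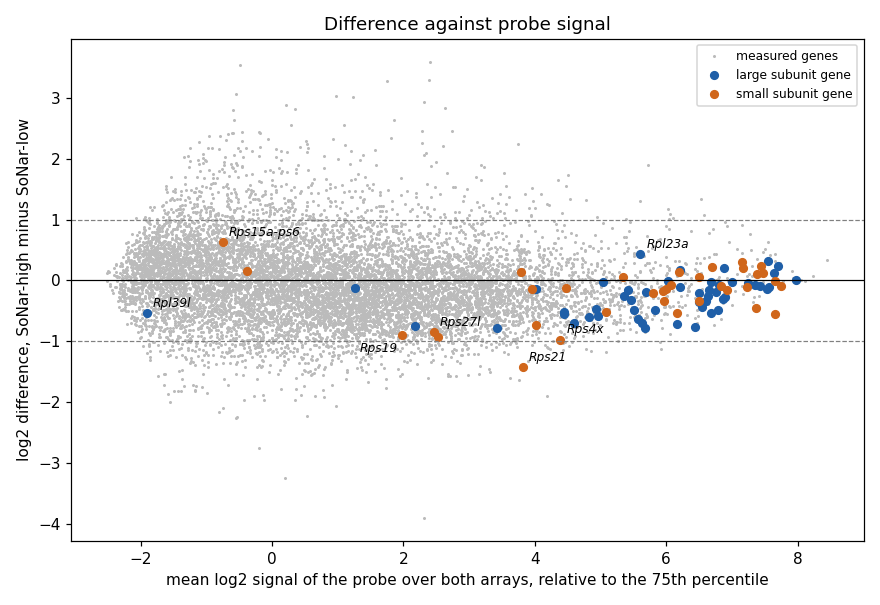
Log2 difference (SoNar-high minus SoNar-low) against the mean log2 signal of the probe over both arrays, relative to each array's 75th percentile, for all measured genes (grey) and the 51 large- and 35 small-subunit genes (blue and orange). Each point is 1 gene on 1 array per group and dashed lines mark 2-fold; the members crowd at the bright end, where the median of the 20 brightest is -0.01, and the 12 under a mean of 4 have a median of -0.64.

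Among members, the correlation of the difference with the mean signal, across genes that share both arrays, was 0.287 (Pearson) and 0.463 (Spearman), and across all measured genes it was -0.135 and -0.174. The brightest members included Rplp2 (0.01), Rpl10a (0.25) and Rps10 (-0.01), of which Rps10 gave 37600 in SoNar-high and 45000 in SoNar-low cells. Within each brightness band the large-subunit median was below the small-subunit median (-0.64 and -0.49, -0.48 and -0.27, -0.25 and -0.09, -0.03 and 0.05). From the dimmest band on, these medians rest on only 4, 18, 19 and 10 large-subunit and 8, 8, 9 and 10 small-subunit genes.

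Many members had several probes, whose values can be set against each other as differences. Over the 172 measured member probes the median was -0.27 (-0.08 over all 12586 named measured probes). Below 0 lay 142 (82.6%), beside 55.5% of all named measured probes. At least 2-fold lower were 6 (3.49%), beside 4.32% of all named measured probes, and none was 2-fold higher (5.17% of all were). Of those 6 probes, the only 1 that represents its gene is that of Rps21. The other 5 belong to Rps3a1, Rpl17, Rpl36a and Rpl13, whose brightest probes were all within 2-fold.

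Rps3a1, a small-subunit protein that lies near the mRNA exit, gave 455 in SoNar-high and 1817 in SoNar-low cells with 1 probe, a difference of -1.74, and 2756 and 3613 with the other, a difference of -0.14. Rpl17, a large-subunit protein at the tunnel exit, had 7 probes between -1.41 and -0.27, all below 0, with 2 of them past 2-fold. Rpl36a gave -1.34 with its dimmest probe (556 and 1677) and -0.72 and -0.68 with the others. Rpl13 gave -1.11 with its dimmest probe (1373 and 3530), -0.55 with the next and 0.18 with the brightest, so that its direction depended on the probe.

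Probes also differed in sign or size in other members. Rpsa, the laminin receptor homologue of the small subunit, gave 0.14, 0.00, -0.84 and -0.18 from its brightest to its dimmest probe. Rpl7 gave 0.20 and 0.22 with its brighter probes and -0.73 and -0.56 with its dimmer ones. The probes of Rps24, which carry 3 different transcript accessions, gave -0.09, -0.96 and -0.27. A probe of Rpl23 was printed 10 times: its spots gave signals of 603 to 703 (median 647) in SoNar-high and 1140 to 1670 (median 1420) in SoNar-low cells, without overlap, and a mean difference of -0.878 (SD over spots 0.154). The other Rpl23 probes gave -0.43 and -0.15, a gap well beyond that spot SD.

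Of the 51 members with several measured probes, 17 had probes on both sides of 0 (766 of all 2021 genes with several probes did), 18 spread by more than 0.5 (824 of the 2021), and the median spread was 0.366 (0.41 over the 2021). The brightest probe gave the highest difference in 28 of the 51 and the lowest in 13, whereas over all 2021 genes it gave the highest in 793 and the lowest in 1133. Brightest minus dimmest probe had a median of 0.17 in members and -0.14 in all genes. Which probes also bind transcripts of the many pseudogenes was not tested, and values of single-probe members such as Rps21 have no such check.

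**Figure D3:**
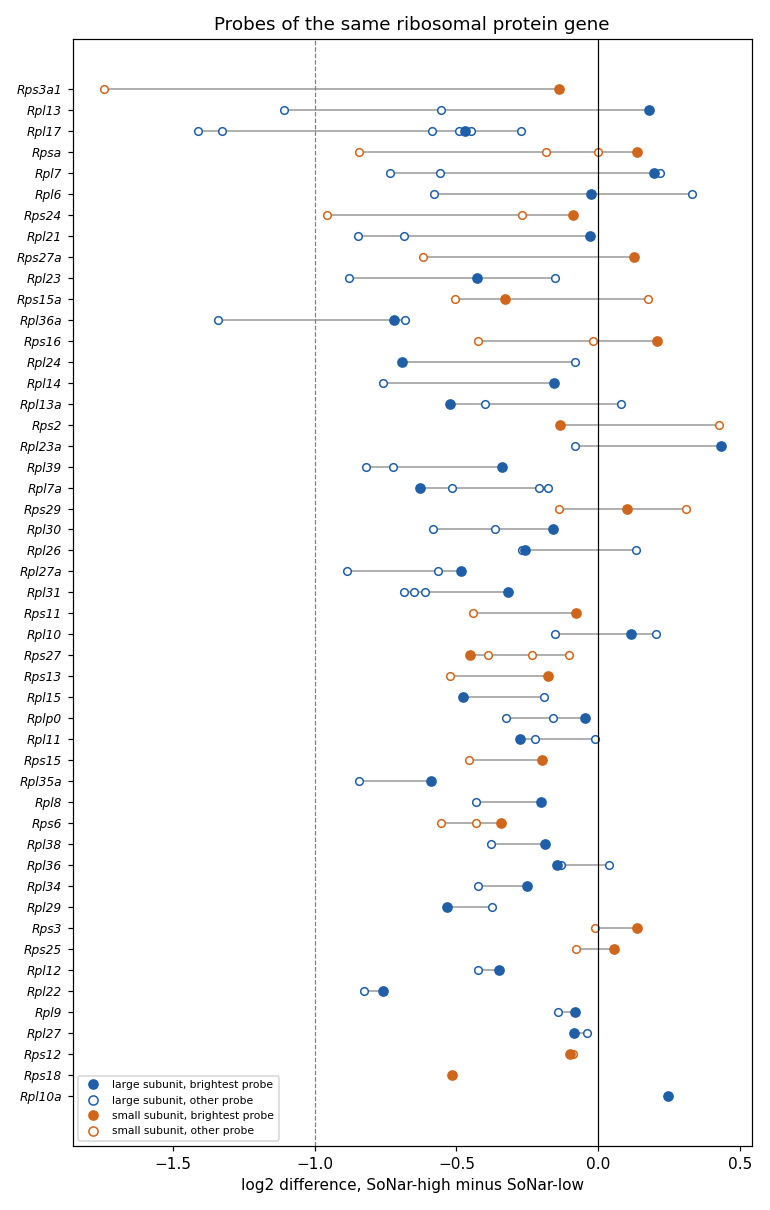
Log2 difference (SoNar-high minus SoNar-low) of every measured probe of 49 ribosomal protein genes with several probes, with genes ordered by the spread between their probes. Filled points are each gene's brightest probe and open points its other probes, blue for the large and orange for the small subunit, and the dashed line marks 2-fold lower; Rps3a1 spreads from -1.74 to -0.14, and over all 51 such genes the brightest probe is the highest of its gene in 28.

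The transcript starts of some members are shown because TOP tracts are the sequence feature that many of these mRNAs share. RefSeq promoter windows (GRCm38.p6, 250 bases before to 50 after the start) matched 63 of the 86 measured members. A tract was counted where the first transcribed base was C and it began a run of at least 5 bases that were each C or T, on the transcribed strand at the annotated start only. This held for 14 of the 63 members (22.2%) and for 813 of all 27025 genes with a window (3.01%). In the sequences below, 25 bases before and 20 from the start on are given 5' to 3' on the gene's strand, with the tract in capitals. The first 5 have a tract and run from the lowest to the highest difference, and the last pair has none at the annotated start.
Rps21, chr2:180257354-180257398, plus strand: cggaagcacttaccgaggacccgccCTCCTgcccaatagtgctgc
Rpl28, chr7:4792940-4792984, plus strand: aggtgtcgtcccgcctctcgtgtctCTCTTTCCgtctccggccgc
Rps27, chr3:90213629-90213673, minus strand: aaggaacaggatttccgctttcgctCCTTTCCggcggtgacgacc
Rps6, chr4:86857348-86857392, minus strand: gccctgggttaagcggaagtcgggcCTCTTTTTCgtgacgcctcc
Rplp2, chr7:141447626-141447670, plus strand: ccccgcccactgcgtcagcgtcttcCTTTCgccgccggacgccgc
Rps27l, chr9:66946061-66946105, plus strand: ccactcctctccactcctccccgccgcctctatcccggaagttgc
Rps4x, chrX:102189372-102189416, minus strand: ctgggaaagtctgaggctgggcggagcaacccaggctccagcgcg

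Members with a tract ranged from -1.43 (Rps21) to 0.01 (Rplp2), with a median of -0.34. Of these, 13 of 14 were below 0, beside 77.9% of all members and 55.8% of all measured genes. Rps10, Rpl32l and Rplp2, each near 0, changed sign over the scalings. Rps6, the small-subunit protein phosphorylated by the S6 kinases, lay near the median of the members with a tract. It gave signals of 10336 and 15614 and a difference of -0.34. The 49 members without a tract at the annotated start ranged from -0.97 to 0.32, with a median of -0.19 and 39 below 0. The ranges of both sets overlapped. The absence of a tract says only that these letters are not at the annotated start in the RefSeq window.

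Genes that work with the ribosomal proteins were measured as lists beside them. Outside the name rule, Fau, which encodes a ribosomal protein fused to a ubiquitin-like domain, gave -0.04 and changed sign over the scalings (-0.181 to 0.113). Rack1, the scaffold of the small subunit, gave -0.40 and stayed below 0 over them (-0.452 to -0.204). Of 15 listed elongation factors and other TOP mRNAs, 10 were below 0 (55.8% of all measured genes were). Their median was -0.42, or -0.34 relative to all genes (-0.34 to -0.205 over the scalings). None was 2-fold higher (5.28% of all measured genes were) and 1, Npm1, was 2-fold lower (4.44% of all measured genes were).

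Npm1, the nucleolar chaperone nucleophosmin, gave 7690 in SoNar-high and 20000 in SoNar-low cells with its brightest probe, a difference of -1.12 (-1.10 to -0.969 over the scalings), while its 5 probes spread from -1.12 to 0.00. Eef2, the translocation factor of elongation, was the highest of its list, with 8740 and 6790 and a difference of 0.62. Of the 18 measured chaperones and importins that escort ribosomal proteins, 16 were below 0 (55.8% of all measured genes were), with a median of -0.32, or -0.235 relative to all genes. Tsr2, the chaperone of Rps26, was the only 1 at least 2-fold lower (4.44% of all measured genes were), with dim signals of 71.8 and 175, a difference of -1.03 that shrank to -0.53 after normexp background correction. Rps26 itself gave 3998 and 5174, a difference of -0.12. Grwd1, the chaperone of Rpl3, was the highest with 0.20.

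**Figure D4:**
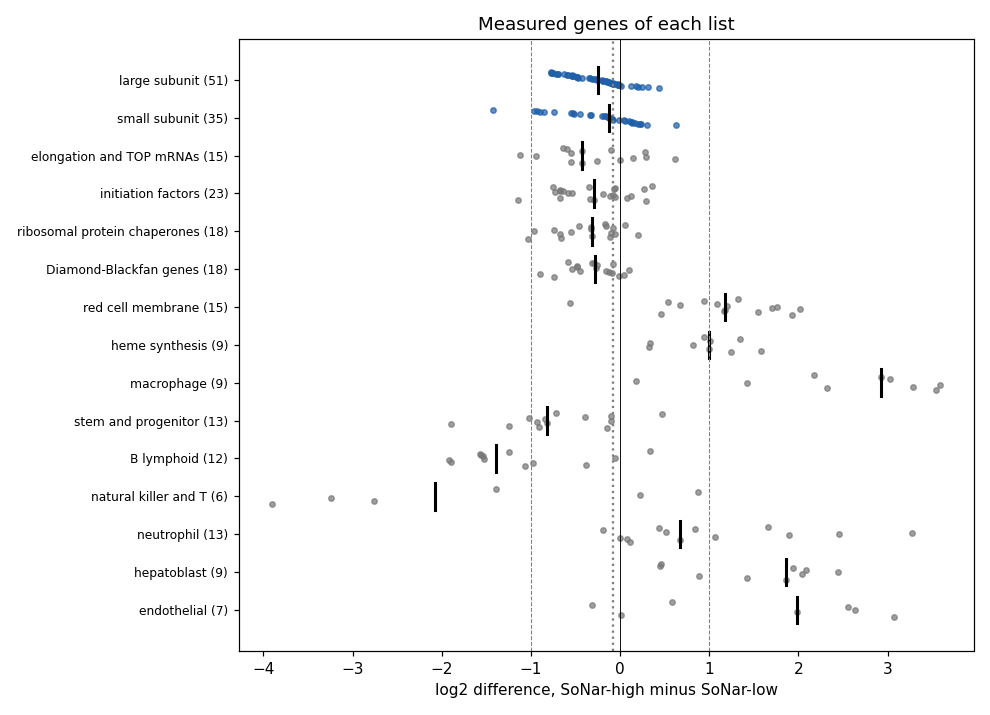
Log2 difference (SoNar-high minus SoNar-low) of each measured gene of the lists, with the number measured in brackets, the 2 subunits in blue and other lists in grey; each point is 1 gene on 1 array per group, black bars are medians, the dotted line is the median of all measured genes and dashed lines mark 2-fold. The ribosomal protein lists lie close to 0 (medians -0.25 and -0.12, the small-subunit median turning to 0.0356 with the 75th percentile of detected probes), and the cell type lists spread from a median of -2.07 for natural killer and T cells to 2.93 for macrophages.

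The sorted populations differed far more in the listed cell type markers than in ribosomal proteins. These lists were chosen with earlier results of these data known, so the contrast is not independent of that choice. The counts past 2-fold that follow stand beside 5.28% of all measured genes higher and 4.44% lower. Higher in SoNar-high were markers of the red cell membrane (median 1.18, 10 of 15 measured genes of 18 listed at least 2-fold higher), heme synthesis (1.00, 4 of 9), macrophages (2.93, 8 of 9 measured of 15 listed), neutrophils (0.67, 5 of 13), hepatoblasts (1.86, 6 of 9 of 12 listed) and endothelium (1.98, 4 of 7 of 10 listed), each median above 0 under the 6 scalings and background corrections. Lower were markers of stem and progenitor cells (-0.82, 3 of 13 measured of 16 listed at least 2-fold lower), B lymphoid cells (-1.39, 8 of 12 of 13 listed) and natural killer and T cells (-2.07, 4 of 6 of 12 listed), each median below 0 under the same settings. The natural killer and T list was not uniform: Cd3e (0.87) and Nkg7 (0.22) lay above 0, and Il2rb, Cd3d, Cd3g, Cd2 and Gata3 were well above background on 1 array only. Other lists also held genes against their median. Xk (-0.559), Ngp (-0.186) and Egfl7 (-0.309) lay below 0, and Tal1 (0.475) and Dntt (0.335) above it. Rhag, Tmod1, Timd4, Axl, Procr, Rag2, Ttr, Fga and Tek were likewise well above background on 1 array only. Not well above background on either array were the macrophage genes Cd163, Siglec1 and Mertk, the endothelial genes Emcn and Tie1, Apoa1, Sptb, Mecom, Erg and Ncr1. These lists moved with the arrays together with the ribosomal protein differences, and their part in those differences was not tested. Group, array and any separate handling of the RNA cannot be told apart.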

How the data were processed

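Blood cells of fetal liver were profiled on 2 Agilent arrays, 1 per group. The authors deposited scanner files of spot intensities, with background already subtracted in the processed signal, made with Feature Extraction 11.0.1.1 per the file headers and 9.1 per the submitters' processing notes. The log2 value table deposited by the authors (each column's median 4.80, normalization not given in the sources used here) served as an alternative; its differences correlated with those of the scanner intensities at 0.917. Controls and outlier spots (225 and 135) were left out, and no spot was saturated. Of 43020 non-control spots, 49.4% (SoNar-high) and 42.4% (SoNar-low) were well above background. The log2 processed intensity minus the array's 75th percentile was averaged over spots of a probe, giving 39429 probes, 15975 of them measured on both arrays. Names came from transcript accessions in a RefSeq table of GRCm38.p6 (27234 probes named, 12195 not), used for names only, since the array design refers to another build.

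Named are the 10 highest and 10 lowest members, those past 2-fold, paralogue pairs, the P stalk, the 5S particle, the anaemia genes, the 5 brightest members and each list's extremes; other genes were named after their values were seen, and some genes that the rule covers are counted but not reported here by name. Members and lists were chosen with earlier results of these data known. The brightness bands and the dimmest-probe alternative were chosen after seeing the data. Alternatives were other percentiles, quantile, loess (span 0.3), normexp (offset 50, limma 3.58.1 in R 4.3.3, on median signals), the value table, filters on dim probes, probe choice, 1.5-fold and omission of copies. The counting was tested on simulated data. Python used numpy 2.4.6, pandas 2.3.3 and statsmodels 0.14.6. The number of arrays limits the precision.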

Additional observations from a re-analysis of the deposited data

How the results depend on the processing

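The median of the members stayed below 0 under all 12 alternatives (-0.303 to -0.0122). With the 75th percentile of detected probes it was -0.0122, the large-subunit median -0.0961 and the small-subunit median 0.0356. All measured genes split into 540 higher and 454 lower past 2-fold, against 782 and 247 with that percentile, 649 and 347 with loess and 251 and 257 after normexp. At 1.5-fold, 1 member was higher and 16 lower (13.8% and 17.7% of all measured genes were). Without a filter on dim probes 1 member, the dim Rpl10l, was 2-fold higher, among 2476 genes in all that were. With the median over probes, the members minus all genes came to -0.235, and with the dimmest probe to -0.237. In the latter setting 4 members were 2-fold lower, beside 443 of all 10223 measured genes. Copy minus gene moved as follows. Rpl22l1 minus Rpl22 was 0.153 with quantile normalization, and Rpl36al minus Rpl36a was 0.588 with the dimmest probe. Rpl39l minus Rpl39 was -0.44 with quantile normalization, -0.365 with loess, 0.0756 after normexp, -0.495 in the value table and 0.187 with the median over probes and with the dimmest probe. Rps27l minus Rps27 was -0.13 with quantile normalization, -0.218 with loess, -0.246 after normexp, -0.136 in the value table and -0.616 with the dimmest probe. The cause was not tested. Pair and subunit values rest on single arrays, signal over background limits Rpl39l and Tsr2, and no paired analysis was possible because there is 1 array per group.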

Other observations

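Of 24 listed translation initiation factors, 23 were measured and Eif5b was not well above background on either array. Their median was -0.29, or -0.21 relative to all genes (-0.251 to -0.087 over the scalings), and 18 of the 23 were below 0 (55.8% of all measured genes were). None was 2-fold higher (5.28% of all measured genes were) and 1 was 2-fold lower (4.44% were). That was Eif1ax, a start codon scanning factor, with signals of 2700 in SoNar-high and 7120 in SoNar-low cells and a difference of -1.14, or -0.81 after normexp background correction. Eif5a, which helps ribosomes through stalling sequences, gave 2470 and 4980 (-0.76), and the cap-binding factor Eif4e gave 2690 and 5100 (-0.67). The scaffold Eif4g1 gave 2590 and 2570 (0.27), so members of the cap-binding complex differed in direction. Eif6, which keeps the ribosomal subunits apart, was the highest with 1050 and 977 (0.36). These values were chosen for mention after the data were seen where they are not the extremes of the list.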
